A study of Homo sapiens with 2 samples.

Results

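Collagen chain genes were all protein-coding genes of GRCh38 whose symbol is COL, a number, A and a number, which gave 44 genes of 19974 on the autosomes and chromosome X, belonging to 28 collagen types. The symbol rule used no measured value. Open chromatin was measured by ATAC-seq, in which the transposase Tn5 cuts accessible DNA and attaches sequencing adapters to it. The line 293T, of human embryonic kidney origin (labelled T293), was set against J76, an acute T-lymphoblastic leukemia line. Each line gave 1 library from 50000 cells tagmented with Tn5 made by the submitters, and the labels give no treatment or engineered change for either line. Since a line is represented by 1 library, differences between 293T and J76 could not be set against replicate spread and were not tested.

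Collagens are the main structural proteins of the extracellular matrix. Each is built from alpha chains wound into a triple helix, and the chains are encoded by separate genes. Fibrillar collagens form the fibres of bone, skin and tendon. Type IV collagen forms the sheet-like network of basement membranes, including that of the kidney glomerulus. FACIT collagens (fibril-associated collagens with interrupted triple helices) decorate fibrils, transmembrane collagens sit in the plasma membrane, and multiplexins lie in basement membrane zones. Fibroblasts are the best known producers, and type IV chains are made by epithelial and endothelial cells.

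Of the 84951 peaks in 293T and 58730 in J76 on these chromosomes, 440 and 266 had a summit within a collagen gene or 50 kb of its ends, or overlapped 1 kb around an end. Sequencing depth cannot be read from the lists, which hold peaks without counts of reads, so an unlisted site is not shown to be closed. T cell markers went with the labels: of 10, none had a peak near a gene end (within 1 kb) in 293T alone, 7 did in J76 alone, 2 in both and 1 in neither. Of 8 embryonic kidney regulators, 5 had one in 293T only (EYA1, GDNF, LHX1, SALL1 and WT1). PAX2 had one in J76 only, SIX2 in both and PAX8 in neither. The EYA1 peak was weak (−log10 q of 2.43). The 7 T cell markers are 70% of their list, against 3.94% of all protein-coding genes in J76 only. The 5 kidney regulators are 62.5%, against 9.09% of all genes in 293T only.

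Starts of transcription were taken from a RefSeq table of GRCh38.p14 that matched 32 of the 44 genes. Not matched were COL1A1, COL1A2, COL2A1, COL3A1, COL5A2, COL6A1, COL6A5, COL8A1, COL9A3, COL14A1, COL20A1 and COL22A1. The sequences printed here are those 300 bases (250 before and 50 after the start, 5′ to 3′) for 1 start of each of the 3 type IV gene pairs, for 2 other starts with a peak in 293T only, for 2 with a peak in J76 only, and for 1 with no peak in either. Capitals mark GGGCGG (the GC box bound by Sp1 family factors), CCAAT and TATAAA on either strand.

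The COL4A2 start lies 127 bp from that of COL4A1 on the other strand, so the sequence covers both. A 293T peak of fold 5.52 overlapped it.
COL4A2 (chr13:110307034-110307333, plus strand): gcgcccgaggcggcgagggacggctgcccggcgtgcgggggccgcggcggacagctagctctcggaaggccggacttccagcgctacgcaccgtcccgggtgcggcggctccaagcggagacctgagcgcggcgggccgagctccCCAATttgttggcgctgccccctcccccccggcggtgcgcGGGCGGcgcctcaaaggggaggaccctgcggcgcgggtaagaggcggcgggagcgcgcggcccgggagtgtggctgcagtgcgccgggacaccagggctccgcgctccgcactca
The COL4A3 start lies 419 bp from that of COL4A4, and both lines had a peak over it.
COL4A3 (chr2:227164374-227164673, plus strand): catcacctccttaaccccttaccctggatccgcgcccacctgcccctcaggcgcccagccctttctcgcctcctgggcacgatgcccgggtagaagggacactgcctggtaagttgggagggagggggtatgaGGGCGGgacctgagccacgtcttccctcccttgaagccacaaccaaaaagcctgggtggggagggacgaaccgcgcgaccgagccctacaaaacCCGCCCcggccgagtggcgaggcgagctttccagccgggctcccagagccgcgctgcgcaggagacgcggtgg
The COL4A5 start lies 380 bp from that of COL4A6, with a 293T peak of fold 4.09.
COL4A5 (chrX:108439588-108439887, plus strand): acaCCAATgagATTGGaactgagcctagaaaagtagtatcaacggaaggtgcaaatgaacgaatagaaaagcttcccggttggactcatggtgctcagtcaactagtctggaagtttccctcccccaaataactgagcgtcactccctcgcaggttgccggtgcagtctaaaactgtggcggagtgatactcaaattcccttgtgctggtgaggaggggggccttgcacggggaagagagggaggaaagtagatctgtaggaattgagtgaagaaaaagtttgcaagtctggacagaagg
COL15A1 and COL12A1 had a peak in 293T only.
COL15A1 (chr9:98943657-98943956, plus strand): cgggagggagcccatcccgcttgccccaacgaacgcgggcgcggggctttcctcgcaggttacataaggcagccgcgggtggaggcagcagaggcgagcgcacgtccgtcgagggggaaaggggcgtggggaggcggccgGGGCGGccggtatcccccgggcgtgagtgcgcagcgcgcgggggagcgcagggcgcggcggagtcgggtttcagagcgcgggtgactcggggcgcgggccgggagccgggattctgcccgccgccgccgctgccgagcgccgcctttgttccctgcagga
COL12A1 (chr6:75206004-75206303, minus strand): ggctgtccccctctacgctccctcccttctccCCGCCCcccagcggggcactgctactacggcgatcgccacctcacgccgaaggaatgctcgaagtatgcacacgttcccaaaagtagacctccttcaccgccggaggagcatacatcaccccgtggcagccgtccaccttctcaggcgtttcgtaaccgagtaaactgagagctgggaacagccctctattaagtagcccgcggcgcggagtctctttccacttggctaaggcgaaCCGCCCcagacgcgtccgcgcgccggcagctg
COL21A1 and COL5A3 had a peak in J76 only.
COL21A1 (chr6:56394079-56394378, minus strand): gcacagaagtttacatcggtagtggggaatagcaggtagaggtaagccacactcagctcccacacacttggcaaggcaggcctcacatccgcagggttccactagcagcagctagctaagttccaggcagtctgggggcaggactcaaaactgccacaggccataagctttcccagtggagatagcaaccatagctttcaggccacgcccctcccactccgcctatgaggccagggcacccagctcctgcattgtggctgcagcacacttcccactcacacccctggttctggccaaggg
COL5A3 (chr19:10010455-10010754, minus strand): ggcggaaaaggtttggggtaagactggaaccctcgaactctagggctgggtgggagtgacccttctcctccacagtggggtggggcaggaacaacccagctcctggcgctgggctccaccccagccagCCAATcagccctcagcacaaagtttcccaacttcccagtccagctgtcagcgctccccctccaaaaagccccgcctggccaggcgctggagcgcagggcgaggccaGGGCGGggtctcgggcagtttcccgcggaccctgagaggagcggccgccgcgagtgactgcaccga
COL17A1 had none in either line.
COL17A1 (chr10:104085831-104086130, minus strand): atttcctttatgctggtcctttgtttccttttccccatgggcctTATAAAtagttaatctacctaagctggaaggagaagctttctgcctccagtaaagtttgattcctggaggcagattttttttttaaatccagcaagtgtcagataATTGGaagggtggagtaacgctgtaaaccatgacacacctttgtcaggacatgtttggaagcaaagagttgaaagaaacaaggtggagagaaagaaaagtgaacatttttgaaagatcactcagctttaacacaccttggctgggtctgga

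Collagen genes had a boundary peak, meaning a peak that overlapped 1 kb either side of either gene end, in 293T only more often than genes at large. They numbered 14 of 44 (31.8%) in 293T only, against 9.09% of all protein-coding genes. Another 3 (6.82%) had one in J76 only, against 3.94% of all genes. Both lines had one at 16 (36.4%), below the 60.7% of all genes, and neither line at 11 (25%), near the 26.3% of all genes. Collagen genes are long, with a median of 145 kb against 24.2 kb for all genes. Among those of at least 50 kb, 12 of 32 (37.5%) had one in 293T alone, 3 (9.38%) in J76 alone, 11 (34.4%) in both and 6 (18.8%) in neither. Of the 6258 genes of that length, the shares were 11.6%, 2.67%, 68% and 17.8%. The bars of boundary peak shares place these sets side by side.

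**Figure D1:**
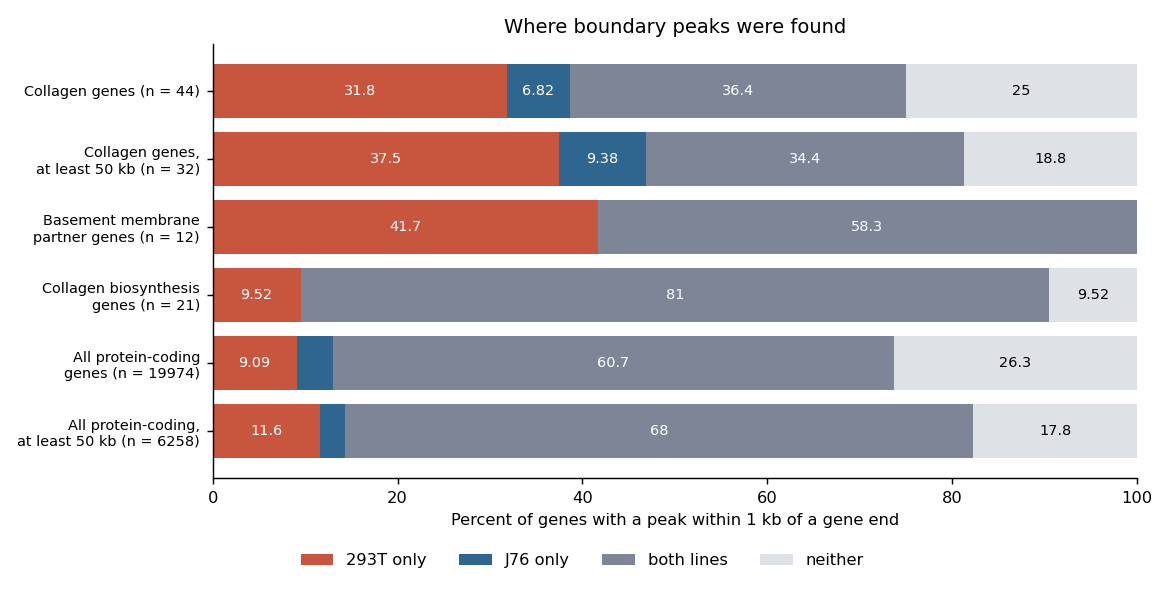
Percent of genes (x axis) with a peak within 1 kb of a gene end in 293T only, J76 only, both lines or neither, for collagen genes, related lists and all protein-coding genes. The 293T-only segment is 31.8% for collagen genes and 9.09% for all genes, and the segment for both lines is 36.4% and 60.7%.

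Several of these calls share a peak or rest on a weak one. Counting members with a common boundary peak once left 12 loci in 293T only and 3 in J76 only. Without the 12 members that have another gene end within 2 kb, 8 of 32 had a peak in 293T alone and 3 in J76 alone, against 11.3% and 4.46% of all such genes. With the annotated start alone, 9 of 32 had a peak in 293T alone (28.1%), 2 in J76 alone (6.25%), 11 in both (34.4%) and 10 in neither (31.2%). All genes with a start gave 8.27%, 3.35%, 63.5% and 24.9%. A window of 500 bp in place of 1 kb ended 4 calls: COL1A1 and COL5A3 then had no boundary peak in either line, and COL1A2 and COL11A2 had one in J76 alone.

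Type IV collagen had the highest share of 293T-only members among the classes with more than 2 genes. The 6 genes lie in 3 divergent pairs, each pair sharing a start region. COL4A1 and COL4A2, the chains of nearly all basement membranes, shared a 293T peak at chr13:110306443-110308705 with a fold (the authors' enrichment over local background at the summit) of 5.52 and a width of 2263 bp. The J76 list had none there, and its nearest peak lay 10266 bp from an end of COL4A1. COL4A5 and COL4A6, the pair on chromosome X, shared a 293T peak of fold 4.09 at chrX:108439484-108440298, and COL4A6 had a further one of 3.93 at chrX:108437864-108438799 over its second start. No J76 peak was within 1 kb, the nearest being 1865 bp from the far end of COL4A5. COL4A3 and COL4A4, whose chains replace others in the mature glomerular membrane, shared a peak in both lines, of fold 6.90 in 293T and 6.31 in J76 (chr2:227163677-227165269 in 293T). Type IV genes thus had 4 members in 293T alone, 0 in J76 alone and 2 in both, which are 2 loci and 1 locus. The 4 in 293T alone are 66.7% of the 6 genes, against 9.09% of all genes.

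The stretch over each pair and 50 kb beyond it also held more 293T peaks. Over COL4A1 and COL4A2 there were 17 peaks in 293T, 13 of them in that line only, and 8 in J76, 4 of them in that line only. For COL4A4 and COL4A3 the numbers were 16 and 14 in 293T and 5 and 3 in J76. For COL4A6 and COL4A5 they were 18 and 16 in 293T and 2 and 0 in J76. Peaks in 293T only lay inside the genes, among them chr2:227107000-227107660 in COL4A4 (fold 11.3) and chr13:110411847-110412569 in COL4A2 (9.42), both chosen after their values were seen. Strong shared peaks lay in the same stretches, reaching 11.0 in 293T over COL4A1 and COL4A2 and 12.0 in J76 beyond COL4A3. 293T was also richer in peaks over the wider regions: the 10 Mb around the gene held 3.67 times as many peaks in 293T as in J76 for COL4A5, 2.29 times for COL4A3 and 1.35 times for COL4A2, against a median of 1.19 for all genes and 1.38 for those of at least 50 kb. The part of this regional difference in the result was not tested.

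**Figure D2:**
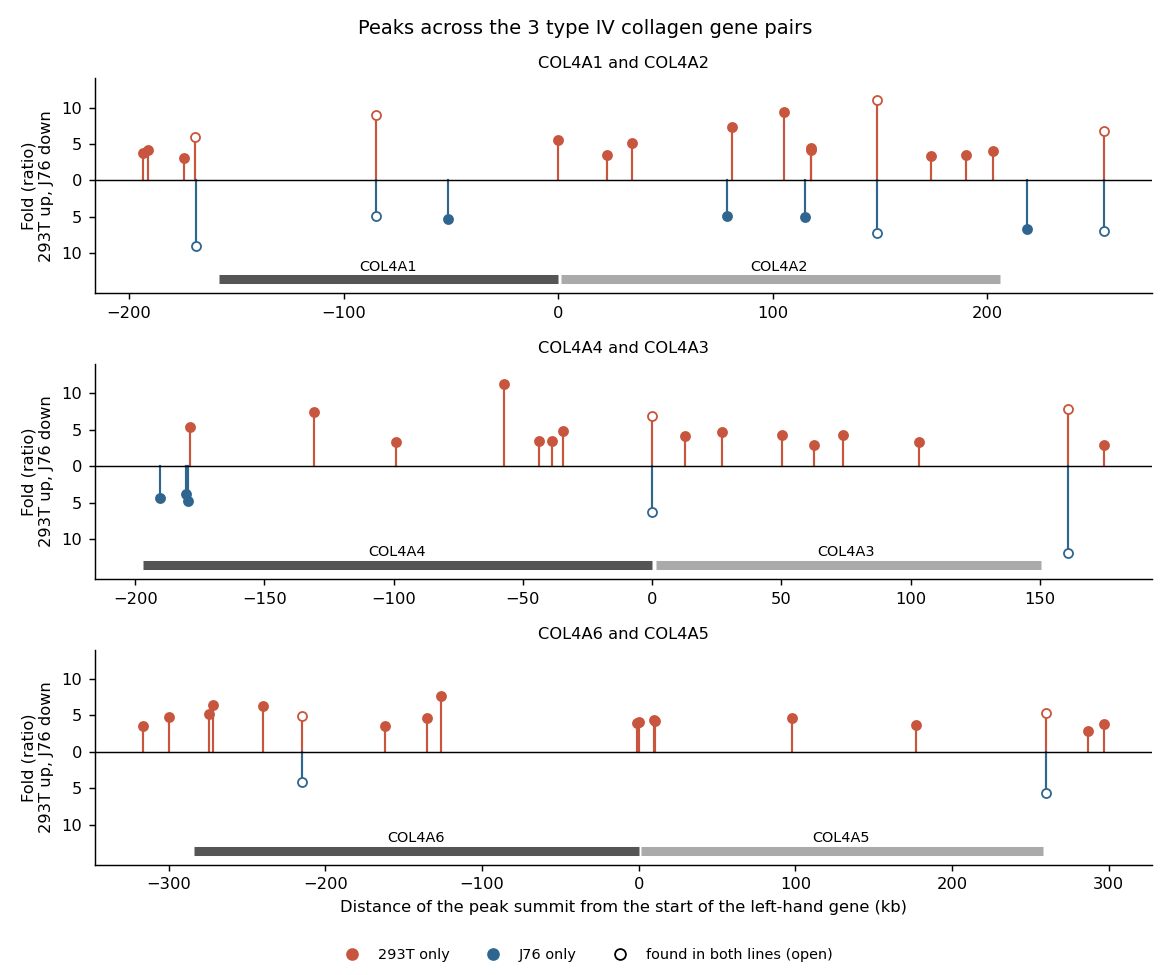
Summits of peaks over the 3 type IV gene pairs and 50 kb beyond (x axis, kb from the start of the left-hand gene, grey bars mark the genes) with the authors' fold as height, 293T upward and J76 downward. Filled points are peaks found in 1 line only; the COL4A6 and COL4A5 stretch holds 18 peaks in 293T and 2 in J76.

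Fibrillar genes were mixed. Of 11, 3 had such a peak in 293T alone, 1 in J76 alone, 5 in both lines and 2 in neither. These are 27.3%, 9.09%, 45.5% and 18.2%, against 9.09%, 3.94%, 60.7% and 26.3% of all genes. COL1A1, a chain of type I collagen, the main protein of bone and skin, had one in both lines, of fold 9.19 in 293T and 8.42 in J76, at chr17:50199723-50201014 in 293T. The COL1A1 summit lay 1.29 kb inside the gene in 293T and 1.28 kb in J76, so only the flank of the peak was within 1 kb of the end. The partner chain COL1A2 had 6.27 in 293T and 5.13 in J76. The J76 list held 1 more peak at COL1A2, of 4.58, that 293T lacked. Type V chains, which set fibril diameter, followed: COL5A1 had 9.76 in 293T and 8.62 in J76, and COL5A2 7.45 in 293T and 8.38 in J76. The COL5A2 peak is also a boundary peak of WDR75, so it is not assigned to 1 gene. The peak of COL11A2 (7.25 in 293T and 6.66 in J76) lay just outside the end of the gene, with its summit over 1 kb away, and none of its 4 annotated starts had a peak in either line.

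The fibrillar members in 293T only were COL24A1, COL27A1 and COL3A1. COL24A1 had a fold of 7.65 at its start (chr1:86155884-86157664), and no J76 peak lay within 20261 bp of its ends. COL3A1, of vessels and skin, had a weak peak of fold 2.53 with a −log10 q of 4.93. COL27A1 had a 293T peak of 2.97 at the outer gene end, but at its annotated start, further in, both lines had one (5.86 in 293T and 6.70 in J76), so this call holds for the gene end and not for the start. COL5A3 was in J76 only, with a fold of 5.15 inside the gene, 786 bp from its start. COL2A1 and COL11A1, cartilage chains, had no boundary peak. Distal peaks are those whose summit is more than 1 kb away from every end of a protein-coding gene. Among the distal peaks that lay no more than 50 kb from an end of a collagen gene, COL11A1 and COL2A1 carried the 2 strongest found in 293T only, of 8.69 at chr1:103106352-103107309 in COL11A1 and 8.67 at chr12:48000957-48002473 in COL2A1.

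Type VI chains, which form beaded filaments around cells, split by locus. COL6A1 and COL6A2, neighbours on chromosome 21, had peaks in both lines: 4.47 in 293T and 5.82 in J76 for COL6A1, and 10.1 in 293T and 5.27 in J76 for COL6A2. COL6A5 (4.38) and COL6A6 (7.47), neighbours on chromosome 3, were in 293T only, and COL6A6 has an end of PIK3R4 within 2 kb. COL6A3 had none in either line. Of the short-chain network genes, COL8A1, of vessel walls and the cornea, was in 293T only (6.40, chr3:99637119-99638871). COL10A1, of hypertrophic cartilage, was in both (3.32 in 293T and 6.57 in J76), and COL8A2 in neither.

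FACIT genes had as many members in 293T only as in J76 only. COL12A1, found in tendon and ligament, was in 293T only at its start (4.24, chr6:75205132-75206359), as was COL9A3 at a gene end (3.73), which has an end of TCFL5 within 2 kb. COL21A1 (5.19, chr6:56393694-56394711) and COL22A1 (5.43) were in J76 only. COL19A1 was in both, with 7.70 in 293T and 10.7 in J76, the highest fold of any J76 boundary peak at a collagen gene. COL14A1 was also in both (5.76 in 293T and 5.37 in J76). COL9A1, COL9A2, COL16A1 and COL20A1 were in neither.

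The other classes were small. Among transmembrane genes COL13A1 (5.84 in 293T and 4.38 in J76), COL23A1 (4.6 in 293T and 4.07 in J76) and COL25A1 (9.09 in 293T and 7.73 in J76) had a start peak in both lines, and COL17A1, of skin hemidesmosomes, had none. Of the multiplexins, COL15A1 was in 293T only (8.36, chr9:98943404-98944589), and COL18A1, whose C-terminal fragment is endostatin, in both at its first start (6.83 in 293T and 5.57 in J76) and in neither at its second. COL26A1 was in 293T only (5.36), although a further 293T peak near its start (6.51) was shared with a J76 peak that lay 1559 bp from the gene end. COL28A1 and COL7A1, of the anchoring fibrils of skin, had none. For the 11 genes with no boundary peak, the nearest peak lay between 1213 and 10168 bp from an end in 293T (median 3232 bp) and between 1338 and 7407 bp in J76 (median 4050 bp). The nearest were COL11A1 in 293T and COL2A1 in J76.

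**Figure D3:**
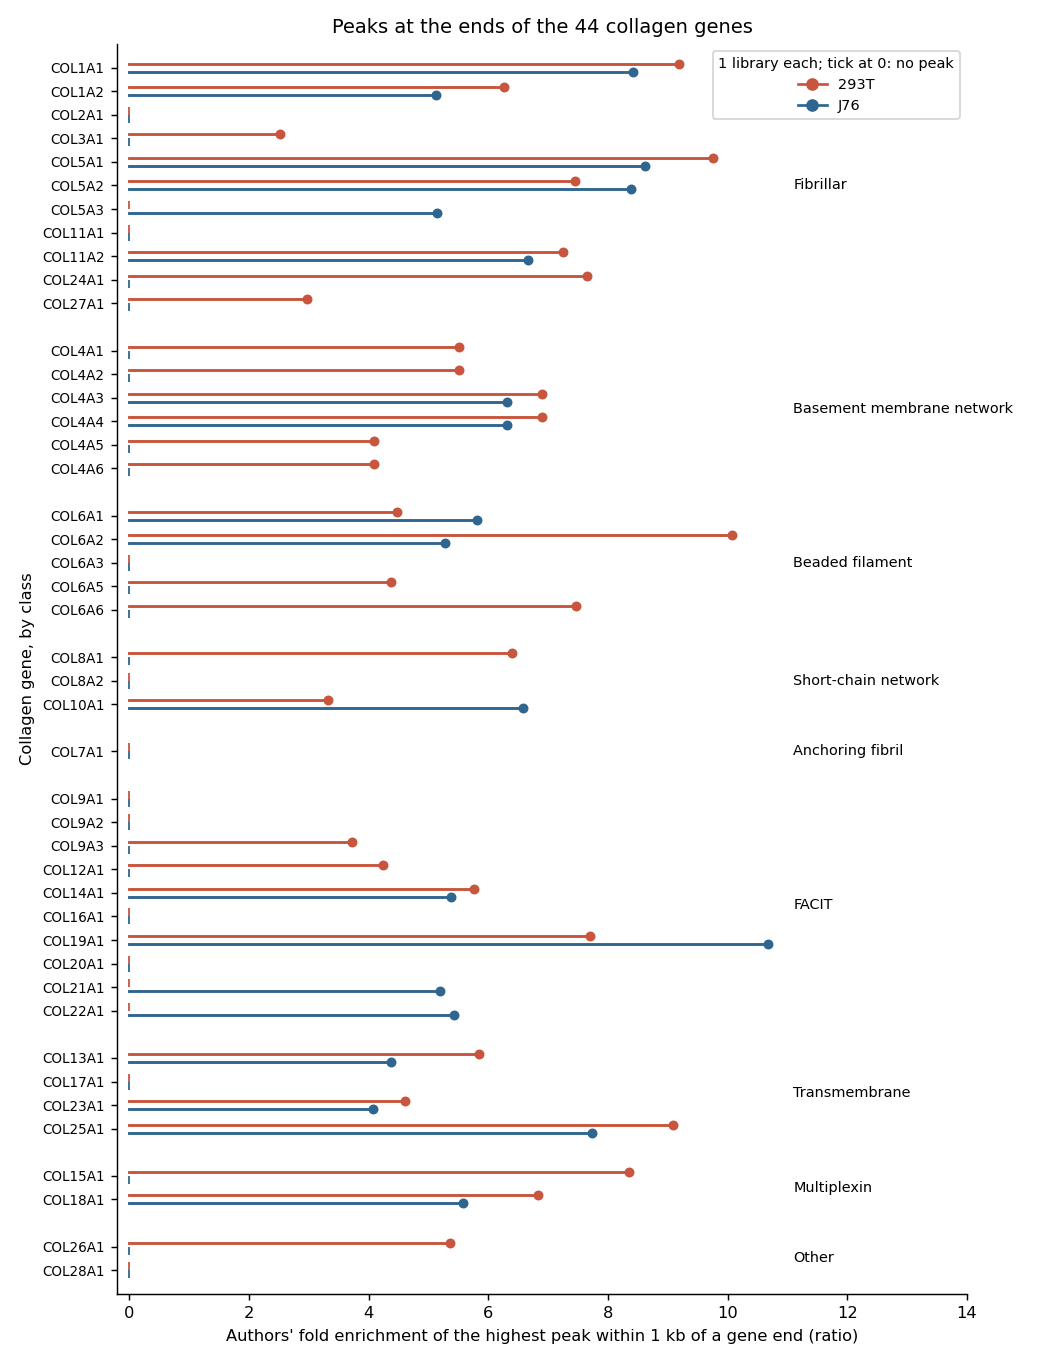
The authors' fold (x axis, ratio) of the highest boundary peak of each of the 44 collagen genes, by class, in 293T (upper line of each pair) and J76 (lower line), 1 library each; a tick at 0 marks no listed peak. 14 genes carry only a 293T point, 3 only a J76 point and 16 both, with the highest at COL6A2 in 293T (10.1) and COL19A1 in J76 (10.7).

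The strength of collagen boundary peaks was not compared with that of other genes' boundary peaks. The 33 distinct boundary peaks in 293T had a median fold of 5.52 and a range of 2.53 to 10.1, and the 20 in J76 a median of 5.50 and a range of 4.07 to 10.7. All peaks of the lists, most of them distal, had medians of 4.38 in 293T and 4.83 in J76. Folds of the 2 lists were not compared with each other, other than in choosing which genes to name.

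Starts with a peak in 293T had a higher median CpG content than starts without one, among collagen genes as among all genes. For the 44 starts of the 32 matched genes, the median CpG ratio (observed over expected in the 300 bases) was 0.728 at the 11 starts in 293T only, 0.335 at the 2 in J76 only (COL21A1 at 0.159 and COL5A3 at 0.510), 0.752 at the 12 in both and 0.331 at the 19 in neither. The medians over all 22132 starts of protein-coding genes were 0.634, 0.414, 0.850 and 0.258. The 44 starts are not all separate sequences. The 300 bases overlap within each type IV pair and between the COL5A1 starts, so some bases count more than once here and in the motif counts. COL4A2 (1.0), COL15A1 (1.08) and COL12A1 (1.01) stood at the high end, with 77.7%, 76% and 63.3% G and C. COL4A5 was lower (0.460), and its sequence holds CCAAT boxes on both strands at its first bases. COL17A1 was the lowest (0.082), with a TATAAA and no GC box. Exceptions were COL10A1, with a peak in both lines at a ratio of 0.128, and COL8A2, with none at 0.922. COL21A1, in J76 only, had none of the 3 marked motifs.

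**Figure D4:**
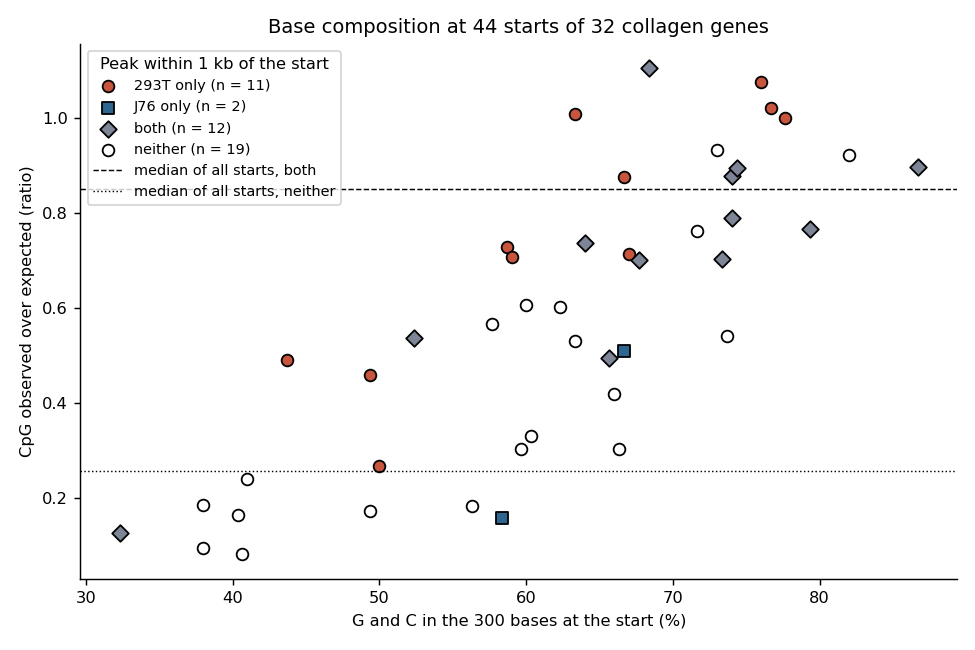
CpG observed over expected (y axis, ratio) against G and C (x axis, percent) in the 300 bases at each of 44 starts of 32 collagen genes, by where a peak lay within 1 kb. Lines give the medians of all starts with a peak in both lines (0.850) and in neither (0.258); starts in neither line run from 0.082 to 0.933.

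Motifs were searched on both strands of the 300 bases, each counted separately even where motifs overlapped. GGGCGG was in 24 of the 44 collagen starts (54.5%) and 56.3% of all starts, and CCAAT in 14 (31.8%) and 34.6%. TATAAA was in 8 (18.2%) and 9.46%, and 5 of these 8 had no peak in either line. Of all 44 collagen starts 19 (43.2%) had none, and of all starts 27.9%. The 5 include the COL10A1 starts at chr6:116126132 and chr6:116158772, and COL10A1 has a further start with a peak in both lines. How often TATAAA starts of all genes lack a peak was not counted. TGANTCA, a site of AP-1 factors, was in 1 (2.27%) and 6.15%. GGAATG, a site of TEAD factors, was in 3 (6.82%) and 12.2%. TGTGGT, a site of RUNX factors, was in 1 (2.27%) and 11.3%. AGATAA, read by zinc finger factors of blood cells and other lineages, was in 4 (9.09%) and 7.88%. A match is a description of the letters and not a bound site.

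Distal peaks around collagen genes were more often in 293T only than in J76 only, as they were over the whole genome. Within 50 kb of a gene end, 182 distinct distal peaks lay in 293T alone and 86 in J76 alone, so that 67.9% of the line-only peaks were from 293T (95% Wilson interval 62.1 to 73.2, counting error only). The genome-wide share was 65.8% (51392 in 293T only and 26678 in J76 only), inside that interval. It covers line-only distal peaks at any distance from a gene, not only those within 50 kb. The shared part was likewise near that of the lists, at 30.5% of distal 293T peaks near collagen genes (25.3 to 36.4) beside 27.9% of all such peaks, and 47.9% of those in J76 (40.4 to 55.5) beside 42.7%. Within 50 kb, collagen genes averaged 4.48 distal peaks in 293T only and 1.98 in J76 only, a ratio of 2.26. The means over all protein-coding genes were 2.33 and 1.52, a ratio of 1.53. In these means a peak counts for every gene it lies near. By gene, 31 of 44 had more 293T-only than J76-only distal peaks (70.5%), against 49.0% of all genes, and 8 had more J76-only peaks (18.2%), against 30.5%. Among genes of at least 50 kb these shares were 84.4% and 6.25% for collagens and 60.5% and 25.7% for all. For collagens of that length, 73.4% of the distinct line-only distal peaks were from 293T (67.0 to 79.0). The genome-wide 65.8% lies below that interval, and this subset was chosen after the data were seen.

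**Figure D5:**
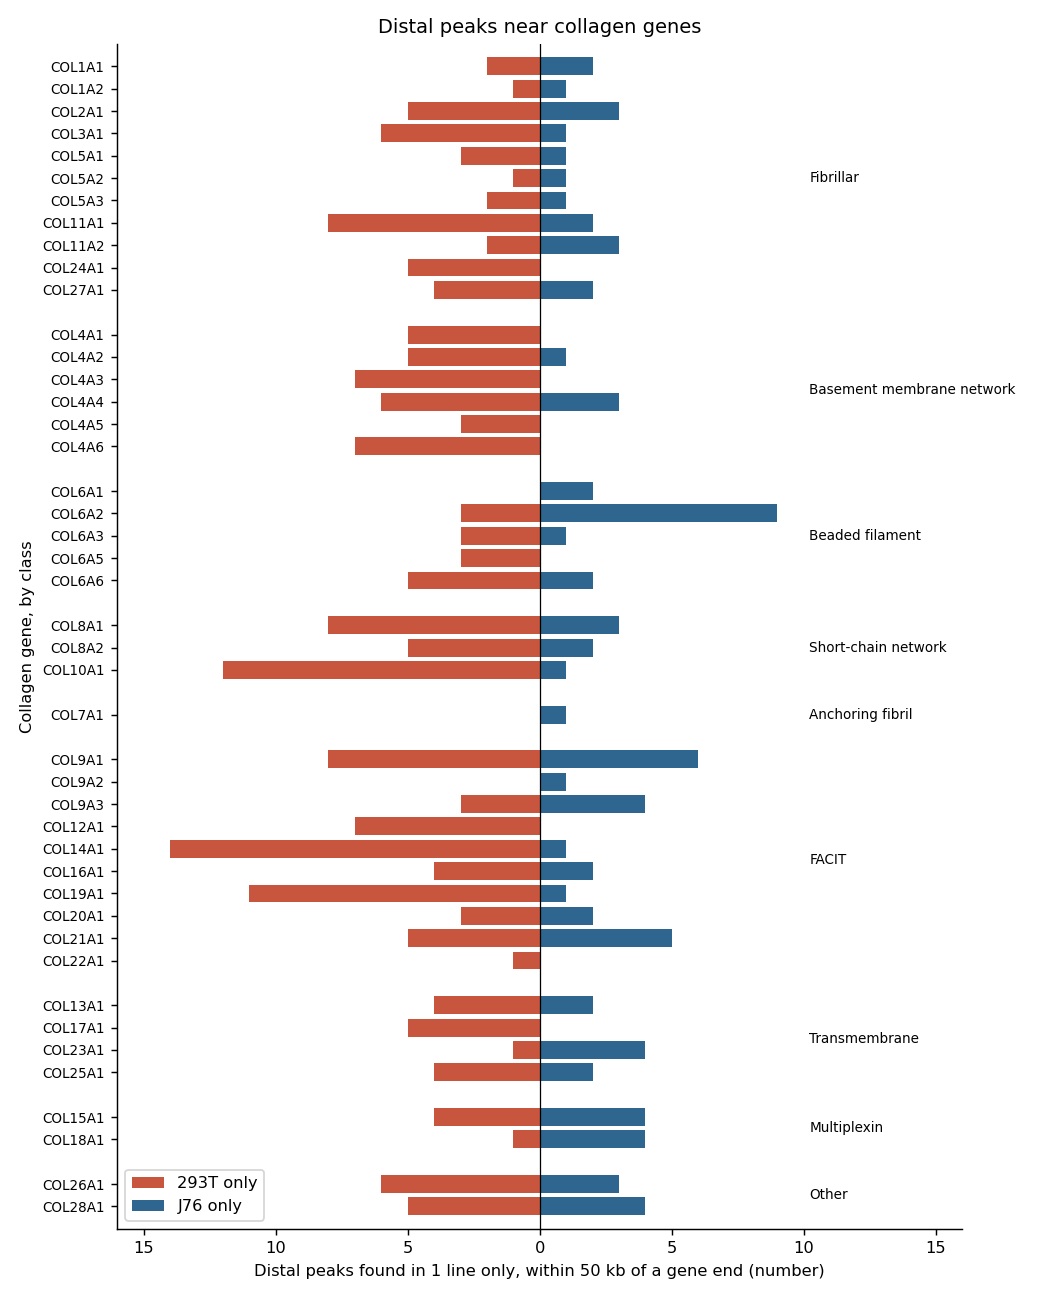
Number of distal peaks within 50 kb of either gene end found in 293T only (left of 0) and in J76 only (right of 0) for each of the 44 collagen genes, by class; neighbouring genes share peaks. COL14A1 has 14 in 293T only and 1 in J76 only, and COL6A2 has 3 and 9.

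The genes differed widely. COL14A1 had 14 distal peaks in 293T only and 1 in J76 only, COL10A1 12 and 1, and COL19A1 11 and 1. COL12A1, COL4A3 and COL4A6 each had 7 in 293T only and 0 in J76 only, and COL11A1 had 8 and 2. COL6A2 went the other way, with 3 in 293T only and 9 in J76 only. COL14A1 had a peak in both lines at its lower-coordinate end, one in 293T only at its upper-coordinate end (3.63), and 14 peaks in its body in 293T, against 0 in J76. By class, the type IV genes had 24 in 293T only and 4 in J76 only (85.7%, 68.5 to 94.3), and the short-chain network genes 25 and 6 (80.6%, 63.7 to 90.8). Over the 10 Mb around the same genes the share was 81.3% for type IV and 76.2% for the short-chain genes, each inside the interval. FACIT genes had 51 and 21, and fibrillar genes 39 and 17. Beaded filament genes had 13 in 293T alone and 14 in J76 alone, with 46.8% of the regional peaks in 293T only. Transmembrane genes had 14 and 8, multiplexins 5 and 8, the remaining pair COL26A1 and COL28A1 11 and 7, and COL7A1 0 and 1.

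After the COL11A1 and COL2A1 peaks, the strongest 293T-only distal peak within 50 kb of a gene end lay in COL9A1 (7.83, chr6:70270321-70271225). Within the same 50 kb, the 3 strongest in J76 only were in COL25A1 (8.79, chr4:109294079-109294353), 43.6 kb outside COL6A1 (7.58, chr21:45937573-45938709) and in COL27A1 (7.14, chr9:114282629-114283345). Deeper inside long genes, over 50 kb from either end, lay stronger 293T-only peaks, such as those of COL4A4 and COL4A2. In J76 only, one of fold 8.51 lay that deep in COL23A1, below the 8.79 in COL25A1. These deeper peaks were named after their values were seen.

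Inside the genes, collagens held 260 peaks in 293T and 114 in J76, or 3.74 and 1.64 per 100 kb. All protein-coding genes held 3.09 and 1.95 per 100 kb, and those of at least 50 kb 2.89 and 1.63. Of the body peaks of collagens, 69.5% were from 293T (64.7 to 74.0), beside 61.4% for all genes and, at 50 kb and above, 71.3% for collagens beside 64.0%. COL24A1 had 18 in 293T and 3 in J76, COL19A1 16 and 4, COL11A1 15 and 3, and COL6A5 7 and 0. COL23A1 (8 in 293T and 11 in J76), COL22A1 (5 and 7) and COL21A1 (6 and 7) were among the genes with more in J76.

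Genes of the collagen pathway other than the chains had a boundary peak in both lines about as often as genes at large. Of 67 on 6 lists, 10 had one in 293T alone (14.9%), 1 in J76 alone (1.49%), 43 in both (64.2%) and 13 in neither (19.4%). Over all genes the shares were 9.09%, 3.94%, 60.7% and 26.3%. Biosynthesis genes, which modify, fold and export the chains, had 17 of 21 in both. PPIB, a prolyl isomerase, had 13.3 in 293T and 11.8 in J76, and COLGALT1, which adds galactose to hydroxylysine, had 12.6 in 293T and 11.5 in J76. The chaperone gene SERPINH1 (HSP47) had 7.41 in 293T and 5.74 in J76. PLOD2, a lysyl hydroxylase (5.00), and COLGALT2 (5.76) were in 293T only. COLGALT2 has an end of RGL1 within 2 kb, PPIB one of SNX22 and COLGALT1 one of NIBAN3. Which gene such a peak belongs to was not tested. Among processing genes, which trim the procollagen ends, 7 of 8 were in both, led by PCOLCE2 (5.99 in 293T and 9.21 in J76) and TLL2 (8.46 in 293T and 6.48 in J76).

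Crosslinking genes of the lysyl oxidase family had 4 of 5 in both, with LOXL1 at 9.34 in 293T and 8.46 in J76 and LOXL3 at 4.38 in 293T and 7.07 in J76, and LOXL2 was in 293T only (8.54). Of 11 receptors, 5 were in both, among them ITGB1, the shared beta subunit of the collagen-binding integrins (7.82 in 293T and 10.4 in J76), and ITGA2 (7.94 in 293T and 5.94 in J76). DDR2, a receptor kinase for fibrillar collagen, was in 293T only (3.91), and ITGA11 in J76 only (3.51). The ITGA11 peak was weak (−log10 q of 3.79). LOXL2 has an end of R3HCC1 within 2 kb, LOXL3 ends of DOK1 and HTRA2, ITGA2 one of MOCS2 and ITGA11 one of FEM1B. Of 10 degradation genes, MMP2, a gelatinase, was in 293T only (7.09), and 6 were in neither. The inhibitors TIMP1 (10.3 in 293T and 6.30 in J76), TIMP2 (8.23 in 293T and 7.13 in J76) and TIMP3 were in both. Shares in both lines were 80% for crosslinking, 45.5% for receptor and 30% for degradation genes, against 60.7% of all genes. In neither line were 60% of degradation genes, against 26.3% of all genes.

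Basement membrane partners of type IV collagen had 5 of 12 in 293T alone (41.7%), 0 in J76 alone and 7 in both (58.3%). All genes gave 9.09%, 3.94% and 60.7%, and those of at least 50 kb 11.6%, 2.67% and 68%. The 293T-only members were the laminin chain genes LAMA4 (7.13), LAMA1 (5.88), LAMA2 (3.96) and LAMA5 (2.84), and NID1 (5.57), which links laminin to type IV collagen. LAMB2 (11.0 in 293T and 9.53 in J76) and NID2 (10.8 in 293T and 3.53 in J76) had the highest 293T folds of the 7 in both, and NID2 the lowest J76 fold. LAMA5 has an end of ADRM1 within 2 kb, and LAMB2 one of USP19. Of 10 markers of matrix-producing mesenchyme, 4 (40%) were in 293T only (TWIST2 6.22, DCN 5.87, LUM 3.08, PDGFRB 2.98). None was in J76 only, 3 were in both and 3 (PDGFRA, PRRX1 and THY1) in neither. The peaks of LUM and PDGFRB were weak (−log10 q of 3.45 and 3.58), and PDGFRB has an end of CSF1R within 2 kb. Of 5 endothelial genes, 1 (20%) was in 293T only, 1 in both and 3 in neither. Their part in the result was not tested, and RNA was not measured in these libraries.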

How the data were processed

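ATAC-seq was done on 1 library each of 293T and J76. Per the submitters' processing notes, Bowtie2 and MACS2 were used; neither their versions nor the build is stated in those notes. The contig names are those of GRCh38, so positions are printed as GRCh38. The deposited peak lists hold, per peak, a score, a fold enrichment at the summit (a ratio) and −log10 p- and q-values, all calculated by the authors' peak caller separately for each library. Each list's values served for ranking and filtering within that list. The exception was the choice of which genes in both lines to name, which used the higher fold of either line. No replicates and no read counts were available, so depth is unknown, no test between lines was made, and intervals cover counting error only.

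Peaks on the autosomes and X were joined to protein-coding genes of a RefSeq table of GRCh38 and to a RefSeq promoter table of GRCh38.p14, which held 32 of the 44 members, using Python 3.11.15, pandas 2.3.3 and numpy 2.4.6, with Wilson 95% intervals from statsmodels 0.14.6 and plots from matplotlib 3.10.9. A boundary peak overlaps 1 kb either side of a gene end. A distal peak has its summit over 1 kb from any end of a protein-coding gene, so a boundary peak such as that of COL1A1 or COL11A2 also counts as distal. Annotated starts inside a gene and ends of non-coding genes were not considered. Peaks within 1 kb of the annotated starts of COL26A1 and COL27A1 thus count as distal too. A peak was shared when it overlapped a peak of the other list by at least 1 bp. Body peaks have their summit in the gene. The genes named were every member with a boundary peak in 1 line only or in neither, the 6 in both with the highest fold in either line, the 8 with the largest difference in line-only distal peaks and, per line, the 3 strongest line-only distal peaks within 50 kb of a member's end; on pathway lists, every gene in 1 line only and the 2 in both with the highest fold in either line. Further members were named to account for all 44. The members and lists were chosen with earlier results of these data known. The assignment of peaks to gene ends and to the 50 kb around them, and the overlap rule, were tested on simulated data. The sorting of genes into statuses was not. Alternatives changed the q threshold, windows, overlap rule, number of peaks and set of members.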

Additional observations from a re-analysis of the deposited data

How the results depend on the processing

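No paired analysis was possible because each line has 1 library and no test was made. Of 39 alternatives, 30 left the value within 1.5 times the main count or, for a share, within its interval. No share went from more 293T peaks to more J76 peaks. Counts were judged by size alone, also where an alternative left 32 genes or 41 loci in place of 44 genes. Collagen genes in 293T only numbered between 8 and 14 under every alternative tried: 9 of 32 at the start alone and 8 of 32 where no other gene end lay within 2 kb. With a window of 2.5 kb, 12 had a peak in 293T alone and 5 in J76 alone, and 4 of the 14 (COL3A1, COL26A1, COL27A1, COL4A5) were then in both. At a −log10 q of at least 10, 10 of the 14 remained in 293T only, and COL3A1, COL6A5, COL27A1 and COL9A3 had no peak left. In 1 alternative the 293T list was cut to its 58730 strongest peaks by q-value, the number in the J76 list, which stayed whole. The 293T share of line-only distal peaks was then 53.4% (genome 49.7%) and that of body peaks 61.9% (all genes 52.2%). For members of at least 50 kb the distal share was 73.4% (67.0 to 79.0), against 65.8% over the genome. Pathway genes in J76 only numbered 0 at a −log10 q of at least 5 and 2 with a window of 2.5 kb. At the start, 1 member was in J76 only with a window of 500 bp. The alternatives on members of at least 50 kb and on shared peaks counted once were chosen after seeing the data. The cause of these shifts was not tested beyond the fewer genes or peaks that an alternative leaves.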
